A study of Homo sapiens with 6 samples.

Results

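Zinc and copper handling in PC-3 cells was read from 40 genes of the 57396 in the deposited count table. These genes were picked by a rule on gene names, with earlier results of these data known. They are 10 zinc transporters of the ZnT family (SLC30A genes), 14 zinc transporters of the ZIP family (SLC39A genes), the copper uptake genes SLC31A1 and SLC31A2, the copper-pumping ATPases ATP7A and ATP7B, 11 metallothioneins (MT1 copies, MT2A and MT3) and MTF1, the factor that switches metallothioneins on. PC-3 is an established cell line from a prostate carcinoma that grows without androgen. The SAM group was PC-3 cells given 160 micromolar S-adenosylmethionine (SAM), the methyl donor of the cell, for 5 days, with 3 libraries. The control group was PC-3 cells given PBS for the same time, with 3 libraries, and all 6 libraries come from this 1 line. Nothing in the labels says that the libraries of a group came from separate cultures, so p-values here reflect only how much these libraries differ among themselves, part of which may be technical.

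Zinc and copper are needed by many enzymes and are harmful when free in excess, so cells hold them within narrow limits. ZIP proteins bring zinc into the cytosol from outside or from organelles, and ZnT proteins move it out again or into vesicles. SLC31A1 brings copper in, the chaperone ATOX1 hands it on, and ATP7A and ATP7B pump it into the secretory pathway or out of the cell. Metallothioneins are small cysteine-rich proteins that bind both metals. When zinc rises, MTF1 binds short metal response elements upstream of the metallothionein genes and of SLC30A1 and raises their transcription. The normal prostate is known for unusually high zinc, which is lost in prostate carcinoma.

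The libraries held 9379258 to 28995160 counts. The libraries of both groups had the epithelial pattern of PC-3. Of 7 epithelial markers, 5 passed the filter on low counts, with a summed level of 2851 to 3596 CPM (counts scaled by library size) in SAM libraries and 3331 to 3475 CPM in control libraries, and CDH1, the epithelial cadherin, was called lower in SAM cells, a call lost without SAM 1 or any 1 control library. The prostate secretory genes KLK3 and KLK2 had no count in any library. Of 6 fibroblast markers DCN and LUM had no count, while COL1A1 had counts in every library, and the list summed to 17.1 to 17.5 CPM in SAM and 17.6 to 19.1 CPM in control libraries. The endothelial and leukocyte lists each summed to at most 1.22 CPM in any library.

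SAM treatment moved few of these genes past the test. Of the 40 members, 25 were abundant enough to be tested. SLC39A4, a zinc importer, was called higher in SAM cells and ATP7A, a copper pump, was called lower, while the other 23 members were not called at an adjusted p of 0.05 (edgeR quasi-likelihood test, Benjamini-Hochberg over all 15312 tested genes). The 2 calls were 8% of the tested members, beside 10.4% of all tested genes (5.19% higher and 5.24% lower). The groups did not overlap in 14 of the 25 members, with SAM above in 6 and below in 8. That is 56.0%, against 36.7% of all tested genes, 17.9% with SAM above and 18.8% with SAM below. At an unadjusted p of 0.05 the test picked 10 of the 25 members and 30.6% of all tested genes. The median log2 fold change was 0.02 over the members and -0.01 over all tested genes.

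These counts moved with single libraries. No member was called without SAM 1, without control 1, without control 2 or without control 3. Without SAM 2, 4 members were called higher and 1 lower, and without SAM 3, 4 were called higher and 2 lower, and both times SLC39A4 and ATP7A were among them. The fit over all genes moved in the same way, with between 61 and 1661 genes called higher and between 78 and 1572 called lower when 1 library was left out, beside 795 and 803 with all 6. With library totals as the scale, 608 genes were called higher and 961 lower.

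**Figure D1:**
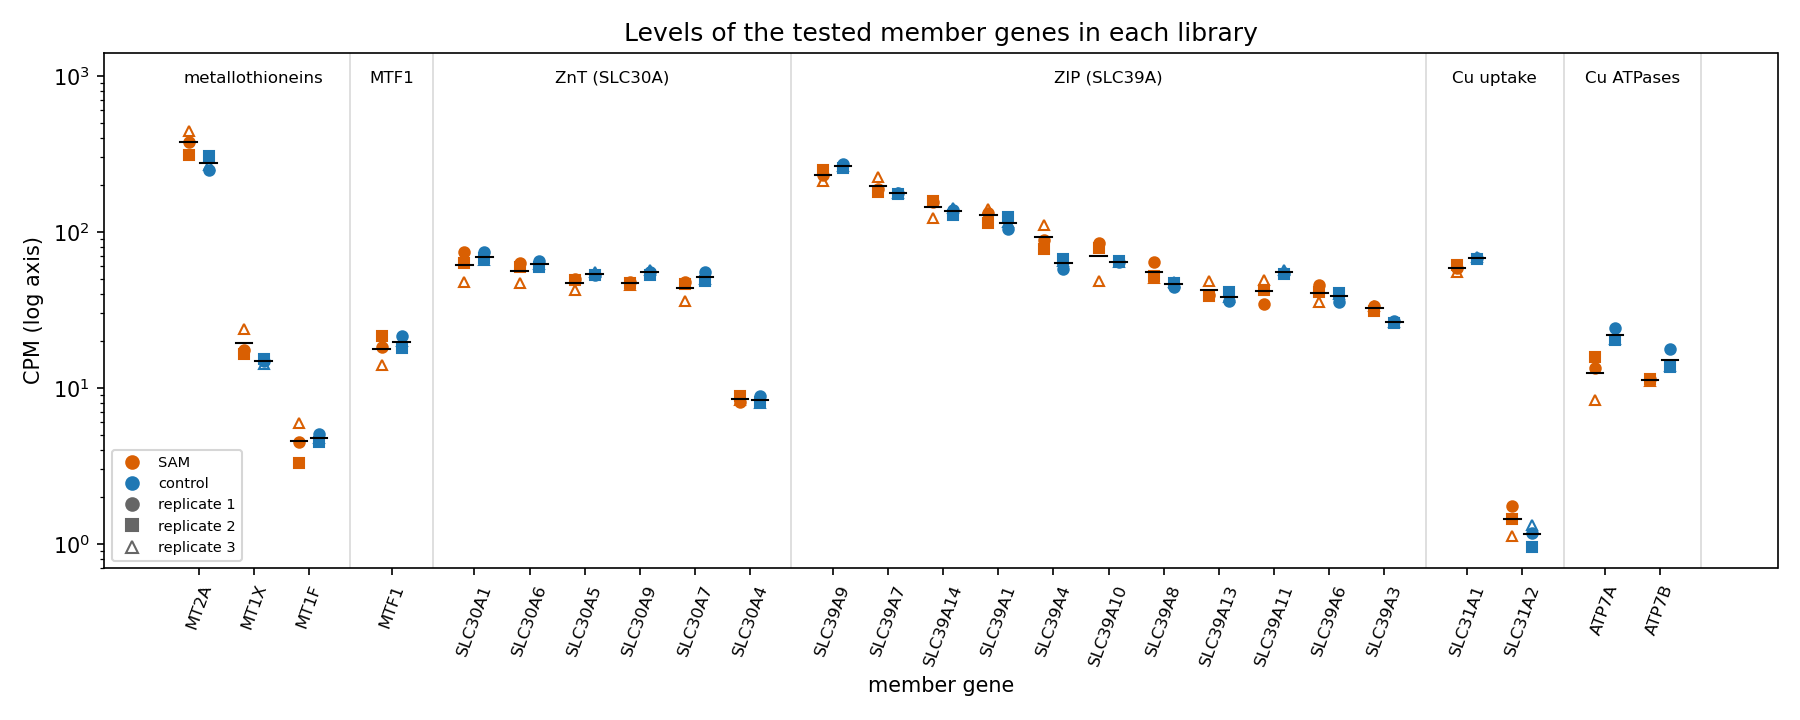
Level in CPM (log axis) of the 25 tested members, by role, in each library of SAM cells (orange, left) and control cells (blue, right), with symbols for the replicate and a black bar for the group mean. MT2A stands highest at 309 to 444 CPM in SAM and 251 to 307 CPM in control libraries, and ATP7A shows all 3 SAM libraries below the control libraries.

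The metallothioneins lie in 1 cluster on chromosome 16 (GRCh38, coordinates of the deposited table), which runs 119 kb from the start of MT4, a copy outside the naming rule, to the end of MT1X (chr16:56565049-56684196). The deposited table draws MT1A beyond that end, at chr16:56638666-56750276. MT2A carried nearly all of the metallothionein RNA, with 92.7 to 94.4% of these counts in every library. Its level averaged over the 6 libraries was 812 CPM per kilobase of transcript, above that of 99.5% of tested genes. MT1X followed at 42.2 and MT1F at 11.0 CPM per kilobase. MT1A, MT1B, MT1E, MT1H, MT1L and MT3 had 0 counts in all 6 libraries. For a gene whose reads can be placed, that allows a level of up to 0.103 to 0.320 CPM depending on the library (3 counts, counting error only). It sets no limit for MT1L, of which 100% of 50-base and 100-base stretches occur in another transcript. MT1G had 2 counts, both in SAM 1, and MT1M had 3 counts over the SAM libraries and 1 over the control libraries.

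The upstream sequences of metallothioneins are shown because genes with and without counts both carry the element that MTF1 binds. Below are the 250 bases upstream of the RefSeq start (GRCh38.p14, plus strand) of MT2A (chr16:56608334-56608583), MT1X (chr16:56682220-56682469), MT1B (chr16:56651636-56651885) and MT1H (chr16:56669564-56669813), of which the first pair had counts and the second had none. For MT2A, MT1X and MT1B the deposited table puts the gene start at another base than RefSeq does. Capitals mark the core of the metal response element, TGCACNC or TGCGCNC, on either strand, and on the other strand it reads GNGTGCA or GNGCGCA.
MT2A: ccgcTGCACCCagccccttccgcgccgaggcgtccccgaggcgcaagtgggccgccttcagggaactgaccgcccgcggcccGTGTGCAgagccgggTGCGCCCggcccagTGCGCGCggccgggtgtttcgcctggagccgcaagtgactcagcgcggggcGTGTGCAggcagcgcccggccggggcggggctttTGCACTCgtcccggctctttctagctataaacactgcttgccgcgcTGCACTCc
MT1X: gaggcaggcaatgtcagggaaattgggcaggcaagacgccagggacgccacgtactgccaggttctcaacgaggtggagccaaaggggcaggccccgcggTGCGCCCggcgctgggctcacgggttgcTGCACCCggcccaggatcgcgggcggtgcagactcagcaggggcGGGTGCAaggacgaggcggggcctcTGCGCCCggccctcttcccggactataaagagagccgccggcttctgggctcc
MT1B: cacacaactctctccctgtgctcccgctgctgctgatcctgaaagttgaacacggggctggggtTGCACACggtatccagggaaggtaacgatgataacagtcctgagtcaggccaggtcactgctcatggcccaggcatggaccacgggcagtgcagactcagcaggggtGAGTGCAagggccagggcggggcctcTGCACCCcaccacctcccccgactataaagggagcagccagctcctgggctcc
MT1H: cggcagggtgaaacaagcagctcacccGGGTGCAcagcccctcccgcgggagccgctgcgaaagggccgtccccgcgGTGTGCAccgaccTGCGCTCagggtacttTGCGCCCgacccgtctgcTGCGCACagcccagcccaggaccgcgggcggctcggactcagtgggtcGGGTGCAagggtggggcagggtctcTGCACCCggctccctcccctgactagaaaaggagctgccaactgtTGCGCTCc

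The core stood 7 times upstream of MT2A, 4 times upstream of MT1X, 3 times upstream of MT1B and 8 times upstream of MT1H. Of 27305 RefSeq promoters of the same length, 24.7% held at least 1 core, 1.56% held at least 3 and 0.366% held at least 4. MT1H, with no count, thus had more matches than the abundant MT2A. In all, 29 of the 40 members matched the promoter table. Of the 25 that are not metallothioneins, 7 (28.0%) held at least 1 core, among them SLC30A1 with 1, SLC30A2 with 3 and SLC30A3 with 2. ATP7A, ATP7B, SLC31A1 and MTF1 held 0 in this window. A match is a stretch of letters and was not measured as a binding site.

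MT2A (ENSG00000125148, chr16:56608199-56609497), the most abundant metallothionein of most human cells, had 375, 309 and 444 CPM in SAM libraries 1 to 3, against 251, 307 and 267 CPM in control libraries 1 to 3. All SAM libraries lay above all control libraries, but SAM 2 and control 2 were nearly level. The log2 fold change was 0.45 ± 0.14 (SE, n = 3 and 3) with a 95% interval of 0.14 to 0.76, and it was not called (edgeR adjusted p = 0.0636). It was called with DESeq2 (adjusted p = 0.0160), with no filter on low counts (edgeR adjusted p = 0.0023), with a term for control 1 and SAM 2, the shallowest libraries (edgeR adjusted p = 0.0196), and without SAM 2 (0.57, edgeR adjusted p = 0.0111). With the dependence of each library on transcript length and GC content removed, a step called trend removal here, the log2 fold change was 0.17 (edgeR adjusted p = 0.0729). In bulk RNA a change in every cell and a change in some cells cannot be told apart, here and in all values that follow.

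MT1X (ENSG00000187193, chr16:56682424-56684196) had 17.5, 16.5 and 24.0 CPM in SAM libraries, against 14.8, 15.3 and 14.3 CPM in control libraries. The groups again did not overlap, and SAM 3 was well above the other SAM libraries. Its log2 fold change of 0.38 ± 0.15 was not called (edgeR adjusted p = 0.120), was 0.47 without SAM 2, where it was called (edgeR adjusted p = 0.0457), and 0.21 without SAM 3 (edgeR adjusted p = 0.168). After trend removal it was 0.13 (edgeR adjusted p = 0.397). MT1F had 4.48, 3.30 and 5.94 CPM in SAM libraries, against 5.04, 4.50 and 4.75 CPM in control libraries. Its SAM libraries lay on both sides of the control libraries, and the log2 fold change was -0.04 and, after trend removal, -0.31 (edgeR adjusted p = 0.202). MT1E (ENSG00000169715) had no count, and 10.3% of its 50-base stretches occur in another transcript.

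Metallothionein copies are alike enough to share reads. Of all 50-base stretches of the canonical transcript, 51.0% in MT1X, 10.2% in MT2A and 6.12% in MT1F also occur in another transcript, and of all 100-base stretches 22.0% in MT1X and 0% in both MT2A and MT1F. No source used here gives the read length, and the split between MT1X and its copies is uncertain. Summed over the 11 metallothioneins, which does not depend on how reads were split among them but misses any reads dropped for matching several copies, the level was 397, 329 and 474 CPM in SAM libraries, against 271, 327 and 286 CPM in control libraries. The mean was 400.2 ± 72.7 CPM in SAM and 295 ± 29.3 CPM in control cells (SD, n = 3 each), a log2 ratio of 0.44 that is given without a test. Leaving out 1 library at a time gave 0.31 (without SAM 3) to 0.57 (without SAM 2).

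**Figure D2:**
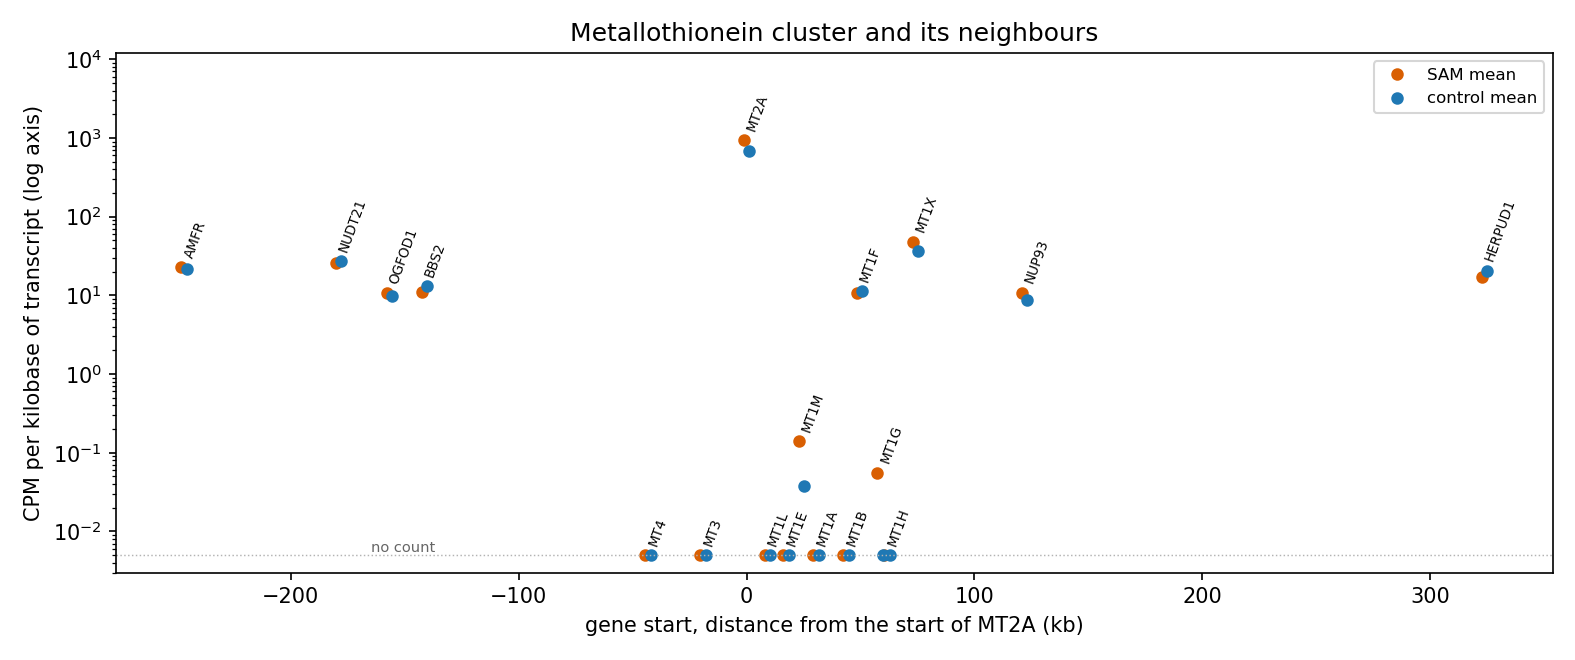
Mean level in CPM per kilobase of canonical transcript (log axis) against the distance of each gene's start from that of MT2A in kilobases, for metallothionein copies and the 6 tested neighbours within 300 kb, with SAM means (orange) drawn slightly left of control means (blue). MT2A stands far above MT1X and MT1F, and the copies on the dotted line had no count.

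The genes around the cluster did not share one direction. Of 22 neighbours within 300 kb of either end of the cluster, 6 were tested, with a median log2 fold change of 0.00. None was called by edgeR or by DESeq2, and 3 had an unadjusted edgeR p under 0.05, beside 30.6% of all tested genes. The extremes were NUP93, a nuclear pore gene, at 0.30 (edgeR adjusted p = 0.101), which was called after trend removal at 0.48 (edgeR adjusted p = 0.0218), and HERPUD1, an endoplasmic reticulum stress gene, at -0.26 (edgeR adjusted p = 0.129). Metallothionein copies and pseudogenes that the naming rule leaves out, 9 in the table, held 18 counts in all, and 0 of them were tested.

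MTF1 (ENSG00000188786, chr1:37809567-37859620), the zinc sensor upstream of the metallothioneins, had 18.2, 21.4 and 13.9 CPM in SAM libraries, against 21.3, 17.9 and 20.0 CPM in control libraries. The groups overlapped, and the log2 fold change was -0.14 ± 0.15 with a 95% interval of -0.49 to 0.20 (edgeR adjusted p = 0.546). Its fold change turned to 0.0091 after trend removal.

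The copper ATPases were both lower in all SAM libraries than in any control library, and 1 of the pair was called. Over all tested genes, 18.8% had SAM below control in this way and 5.24% were called lower. ATP7A (ENSG00000165240, chrX:77910656-78050395), whose loss causes Menkes disease, had 13.3, 15.7 and 8.38 CPM in SAM libraries, against 24.1, 20.2 and 20.7 CPM in control libraries. Its mean was 12.5 ± 3.74 CPM in SAM and 21.7 ± 2.15 CPM in control cells (SD, n = 3 each). The log2 fold change was -0.79 ± 0.20, with a 95% interval of -1.23 to -0.36 (edgeR adjusted p = 0.0329), a fall of 42.3% in the fit, and each SAM library was below every control library. SAM 3 was the lowest library, and without it the log2 fold change was -0.58 (edgeR adjusted p = 0.0152). With the length and GC trend removed it was -0.61 (edgeR adjusted p = 0.0080). The call was lost without SAM 1 (edgeR adjusted p = 0.116), control 1 (0.128), control 2 (0.0893) or control 3 (0.124), and with all libraries thinned to the smallest (0.0576), while the fold change stayed between -0.96 and -0.58 in all fits that left out 1 library.

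ATP7B (ENSG00000123191, chr13:51932673-52011494), the Wilson disease gene, had 11.4, 11.3 and 11.1 CPM in SAM libraries, against 17.7, 13.6 and 13.7 CPM in control libraries. The SAM libraries were tightly grouped and control 1 was the highest. Its log2 fold change of -0.40 ± 0.13 was not called (edgeR adjusted p = 0.0843) and was -0.27 after trend removal. Per kilobase of transcript ATP7A and ATP7B had like levels, 2.01 and 1.99 CPM per kilobase averaged over the 6 libraries.

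SLC31A1 (ENSG00000136868, chr9:113221562-113264492), the main copper importer of the cell surface, had 58.5, 61.3 and 55.3 CPM in SAM libraries, against 68.0, 66.7 and 68.6 CPM in control libraries. All SAM libraries were lower, by little, with a log2 fold change of -0.22 ± 0.09 that was not called (edgeR adjusted p = 0.124) and was -0.11 after trend removal (edgeR adjusted p = 0.226). SLC31A2, which acts in endosomes and lysosomes, had 1.76, 1.44 and 1.12 CPM in SAM libraries, against 1.18, 0.95 and 1.32 CPM in control libraries, and the groups overlapped.

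Among the 14 ZIP members, 11 were tested. By edgeR 1 was called higher and 0 lower, beside 5.19% higher and 5.24% lower of all tested genes. At an unadjusted p under 0.05 there were 4, and DESeq2 called SLC39A4 higher and SLC39A11 lower. Their log2 fold changes were positive in 9 and negative in 2, with a median of 0.14, beside 7517 positive and 7795 negative of all tested genes. SAM lay above control in 4 and below it in 2 of the 11, against 17.9% above and 18.8% below over all tested genes. SLC39A4 (ENSG00000147804, chr8:144409742-144416895), the importer whose loss causes the zinc deficiency disease acrodermatitis enteropathica, had 87.9, 78.1 and 110.1 CPM in SAM libraries, against 58.1, 67.2 and 64.6 CPM in control libraries. Its mean was 92.0 ± 16.4 CPM in SAM and 63.3 ± 4.69 CPM in control cells (SD, n = 3 each). The log2 fold change was 0.54 ± 0.13, with a 95% interval of 0.24 to 0.83 (edgeR adjusted p = 0.0330), a rise of 45.1% in the fit, and each SAM library was above every control library. SAM 3 was the highest library, and without it the log2 fold change was 0.39 (edgeR adjusted p = 0.0196). With the length and GC trend removed it was 0.44 (edgeR adjusted p = 0.0076). The call was lost without SAM 1 (edgeR adjusted p = 0.0959), control 1 (0.139), control 2 (0.0901) or control 3 (0.133).

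The 3 ZIP genes with the most RNA per kilobase of transcript were SLC39A7, SLC39A1 and SLC39A9, at 77.5, 59.7 and 45.8 CPM per kilobase, and none was called. SLC39A7 (ENSG00000112473, chr6:33200445-33204439), which releases zinc from the endoplasmic reticulum, had 189, 179 and 225 CPM in SAM libraries, against 177, 175 and 177 CPM in control libraries, with a log2 fold change of 0.16 ± 0.11 (edgeR adjusted p = 0.313). The groups just failed to overlap, and SAM 3 stood apart. SLC39A1 (ENSG00000143570, chr1:153959099-153968184), the importer tied to zinc uptake in prostate cells, had 132, 114 and 140.1 CPM in SAM libraries, against 104, 124 and 115 CPM in control libraries. Its groups overlapped, with a log2 fold change of 0.17 ± 0.11 and a 95% interval of -0.08 to 0.42 (edgeR adjusted p = 0.330), and 0.11 after trend removal. SLC39A9 (ENSG00000029364, chr14:69398015-69462388), a transporter of the secretory pathway, had 233, 249 and 212 CPM in SAM libraries, against 273, 255 and 263 CPM in control libraries. All its SAM libraries were lower, with a log2 fold change of -0.19 ± 0.09 (edgeR adjusted p = 0.202), which was -0.13 without SAM 3 and -0.066 after trend removal (edgeR adjusted p = 0.484).

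SLC39A3, SLC39A8, SLC39A11 and SLC39A10 are named because leaving out a library or another setting changed their call, and they were chosen after their values were seen. SLC39A3, an importer of the cell surface, had 33.4, 31.1 and 33.3 CPM in SAM libraries, against 26.9, 26.0 and 26.3 CPM in control libraries. Both groups were tight and lay apart, and the log2 fold change of 0.31 ± 0.09 lay just outside the threshold (edgeR adjusted p = 0.0512). After trend removal it was 0.17 (edgeR adjusted p = 0.221). SLC39A3 was called higher with RLE factors, with a filter of 1 CPM, without SAM 2 and without SAM 3. It was also called higher with the trend removed and SAM 3 left out. SLC39A8, which carries zinc, manganese and cadmium, had 64.2, 52.0 and 50.3 CPM in SAM libraries, against 44.2, 46.6 and 47.9 CPM in control libraries. It was not called at a log2 fold change of 0.27 (edgeR adjusted p = 0.134), but was called after trend removal (0.32, edgeR adjusted p = 0.0195).

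SLC39A11 had 34.4, 42.3 and 48.8 CPM in SAM libraries, against 54.6, 53.5 and 56.6 CPM in control libraries, so the control libraries were close together and the SAM libraries spread out below them. Its log2 fold change of -0.40 ± 0.12 was not called (edgeR adjusted p = 0.0659), but was called after trend removal (-0.39, edgeR adjusted p = 0.0356). SLC39A10 had 84.6, 78.7 and 48.1 CPM in SAM libraries, against 63.6, 64.9 and 63.7 CPM in control libraries. SAM 1 and SAM 2 lay above all control libraries and SAM 3 below them, with a log2 fold change of 0.14 over all 3 (edgeR adjusted p = 0.624) and 0.36 without SAM 3 (edgeR adjusted p = 0.0126). The other tested ZIP genes, SLC39A6, SLC39A13 and SLC39A14, had overlapping groups and log2 fold changes of 0.06, 0.13 and 0.09. Of these SLC39A14 was called higher with the trend removed and SAM 3 left out. SLC39A2, SLC39A5 and SLC39A12 had 5, 10 and 1 counts over all 6 libraries and did not pass the filter, the counts of SLC39A5 being 6, 1 and 2 in SAM libraries, against 0, 1 and 0 in control libraries.

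**Figure D3:**
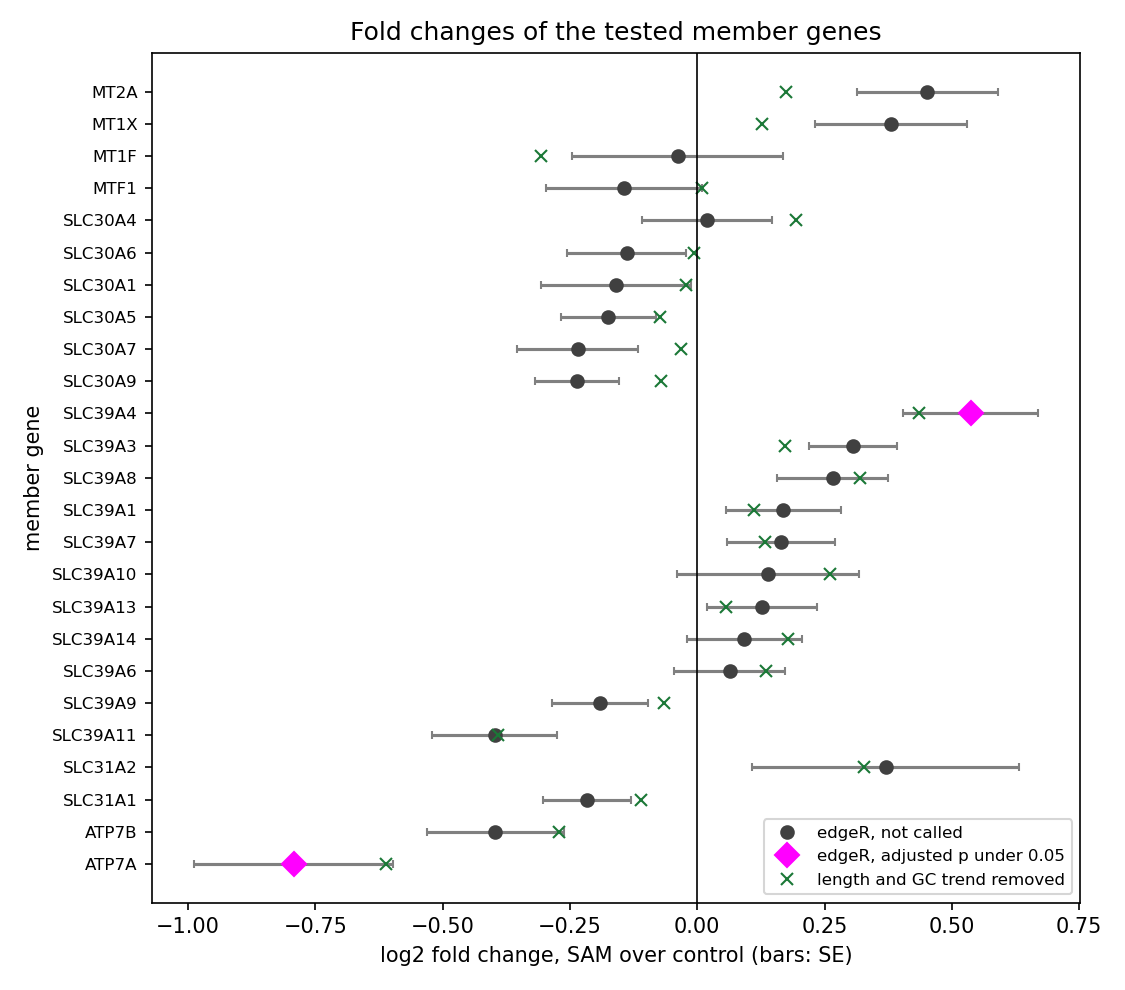
Log2 fold change of SAM over control for the 25 tested members by role, with bars for the SE, diamonds for the 2 called members and green crosses for the value after the length and GC trend of each library was removed. ATP7A at -0.79 and SLC39A4 at 0.54 were called with and without the trend, while MT2A moves to 0.17 and the ZnT genes other than SLC30A4 move toward 0.

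Of the 10 ZnT members, 6 were tested and 0 were called (edgeR), with 1 at an unadjusted p under 0.05 and 0 called by DESeq2. Their log2 fold changes lay between -0.24 and 0.02, 5 of them negative, with a median of -0.17, which was -0.03 after trend removal. SAM lay below control in 3 of the 6 and above it in 0, against 18.8% below and 17.9% above over all tested genes. SLC30A1 (ENSG00000170385, chr1:211571568-211578742), the exporter at the cell surface and itself a target of MTF1, had 74.0, 63.2 and 47.5 CPM in SAM libraries, against 74.1, 67.4 and 65.5 CPM in control libraries. SAM 3 was the low library and the groups overlapped, with a log2 fold change of -0.16 ± 0.15 and a 95% interval of -0.49 to 0.17 (edgeR adjusted p = 0.485). Without SAM 3 the log2 fold change was 0.0050.

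SLC30A5 and SLC30A6, which work as a pair to load the early secretory pathway with zinc, had with SLC30A1 the most RNA per kilobase among ZnT genes, at 12.6, 11.7 and 11.1 CPM per kilobase for SLC30A5, SLC30A6 and SLC30A1. SLC30A5 (ENSG00000145740, chr5:69093646-69131069) had 50.1, 49.2 and 42.4 CPM in SAM libraries, against 52.7, 52.5 and 54.9 CPM in control libraries, and all SAM libraries were lower (log2 fold change -0.18 ± 0.09, edgeR adjusted p = 0.231). SLC30A6 (ENSG00000152683, chr2:32165841-32224379) had 62.8, 59.7 and 46.7 CPM in SAM libraries, against 65.0, 59.5 and 62.1 CPM in control libraries, and the groups overlapped (log2 fold change -0.14 ± 0.12, edgeR adjusted p = 0.446). SLC30A7 of the Golgi and SLC30A9, a zinc exporter of mitochondria, were lower in all SAM libraries than in any control library without a call, at log2 fold changes of -0.23 and -0.24 (edgeR adjusted p = 0.209 and 0.0904). SLC30A4 did not separate the groups, at 8.13 to 8.88 CPM in SAM and 8.03 to 8.90 CPM in control libraries. SLC30A2, SLC30A3, SLC30A8 and SLC30A10 had 2, 38, 1 and 3 counts over all 6 libraries and were not tested, the 38 counts of SLC30A3, a transporter of synaptic vesicles, being 19 in SAM and 19 in control libraries.

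Genes that take over copper inside the cell were read as a list of 20 chaperones, reductases and copper enzymes. Of 19 tested, edgeR called 2 higher and 1 lower and did not call 16, beside 5.19% higher and 5.24% lower of all tested genes. The median log2 fold change was 0.15, and 10 had an unadjusted p under 0.05 (30.6% of all tested genes). DESeq2 called 5, adding SOD1 and COX17, and after trend removal edgeR also called SOD1 (adjusted p = 0.0316) and STEAP3 (adjusted p = 0.0468). ATOX1, the chaperone that brings copper to ATP7A and ATP7B, had 132, 107 and 138 CPM in SAM libraries, against 74.4, 86.3 and 74.4 CPM in control libraries. All SAM libraries were above all control libraries, with a log2 fold change of 0.68 ± 0.12 (edgeR adjusted p = 0.0114) and of 0.43 with the length and GC trend removed (edgeR adjusted p = 0.0057). SCO2, which delivers copper to cytochrome c oxidase, had 24.1, 20.0 and 26.1 CPM in SAM libraries, against 14.8, 19.3 and 14.6 CPM in control libraries. SCO2 was called higher at 0.52 ± 0.14 (edgeR adjusted p = 0.0485), but SAM 2 and control 2 were nearly level. STEAP2, a metal reductase that prostate cells express, had 28.5, 35.2 and 23.4 CPM in SAM libraries, against 53.3, 41.7 and 46.8 CPM in control libraries. It was called lower at -0.70 ± 0.15 (edgeR adjusted p = 0.0203), and at -0.53 with the trend removed (edgeR adjusted p = 0.0047). The calls of all 3 genes were lost without SAM 1, without control 1 and without control 3, that of STEAP2 also without control 2 and that of SCO2 also without control 2 or SAM 3, where the edgeR adjusted p reached 0.0844 for ATOX1, 0.212 for SCO2 and 0.101 for STEAP2.

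Further zinc, magnesium and iron transport genes gave 1 call among 10 tested, beside 10.4% of all tested genes called. FTL, the light chain of the iron store ferritin, had 804, 687 and 868 CPM in SAM libraries, against 476, 544 and 516 CPM in control libraries, a log2 fold change of 0.62 ± 0.11 (edgeR adjusted p = 0.0114). FTH1, the heavy chain, averaged 1772 CPM in SAM and 1923 CPM in control libraries. Its groups overlapped and it was not called (-0.12, edgeR adjusted p = 0.367). TFRC, another gene of this list, also had overlapping groups and was not called (0.16, edgeR adjusted p = 0.386). After trend removal TFRC was called higher (0.28, edgeR adjusted p = 0.0170). Of 10 genes that respond to metal and oxidative stress, all tested, edgeR called 4 higher and 1 lower. Over all tested genes 5.19% were called higher and 5.24% lower. The list, like the others, was chosen with earlier results of these data known, so these shares cannot show an excess. HSPA1A and HSPA1B, near-identical copies of the inducible HSP70 whose reads may be split between them, were called higher at 1.15 ± 0.11 and 0.98 ± 0.10 (edgeR adjusted p = 0.0011 and 0.0014), with their co-chaperone DNAJB1 at 0.46 and GCLM of glutathione synthesis at 0.51. GCLC, also of glutathione synthesis, went the other way and was not called (-0.30, edgeR adjusted p = 0.0659). After trend removal GCLC was called lower (-0.23, edgeR adjusted p = 0.0367). NQO1 of the same list was not called (0.26, edgeR adjusted p = 0.123) but was called higher after trend removal (0.28, edgeR adjusted p = 0.0460). SLC7A11, the cystine importer, was called lower with 55.7, 110.1 and 54.1 CPM in SAM libraries, against 186, 156 and 159 CPM in control libraries (log2 fold change -1.19 ± 0.24, edgeR adjusted p = 0.0183). The calls of FTL, DNAJB1, GCLM and SLC7A11 were lost without SAM 1 and without any 1 control library, where the edgeR adjusted p reached 0.0798, 0.129, 0.194 and 0.0995 in that order, while those of HSPA1A and HSPA1B held in all these fits. HMOX1, a target of heme and oxidative stress, had overlapping groups and was not called (0.38, edgeR adjusted p = 0.136).

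One library stood apart in a way that touches these genes. In SAM 3, levels relative to the mean of all libraries rose by 0.13 log2 units per 10 points of transcript GC content and fell by 0.13 per doubling of transcript length, against -0.06 and -0.05 in SAM 1, 0.00 and 0.04 in SAM 2, and -0.04 to -0.01 and 0.01 to 0.07 in control libraries. Member transcripts ranged from 36.2% to 66.6% GC. SAM 3 was the highest SAM library in 6 of the 8 tested members with at least 50% GC, and the lowest in 14 of the 17 below 50% GC. Across the 25 members, which share the same 3 libraries, the deviation of SAM 3 from SAM 1 and SAM 2 followed GC content with a Spearman rho of 0.74, and across 14874 tested genes rho was 0.48. The fold change of SAM over control followed GC content at 0.52 across the members and at 0.18 across all tested genes, and at 0.21 across the members once the trend of each library was removed. With the trend removed, 19 of the 25 fold changes shrank, and 1 of the 25, that of MTF1, changed sign.

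**Figure D4:**
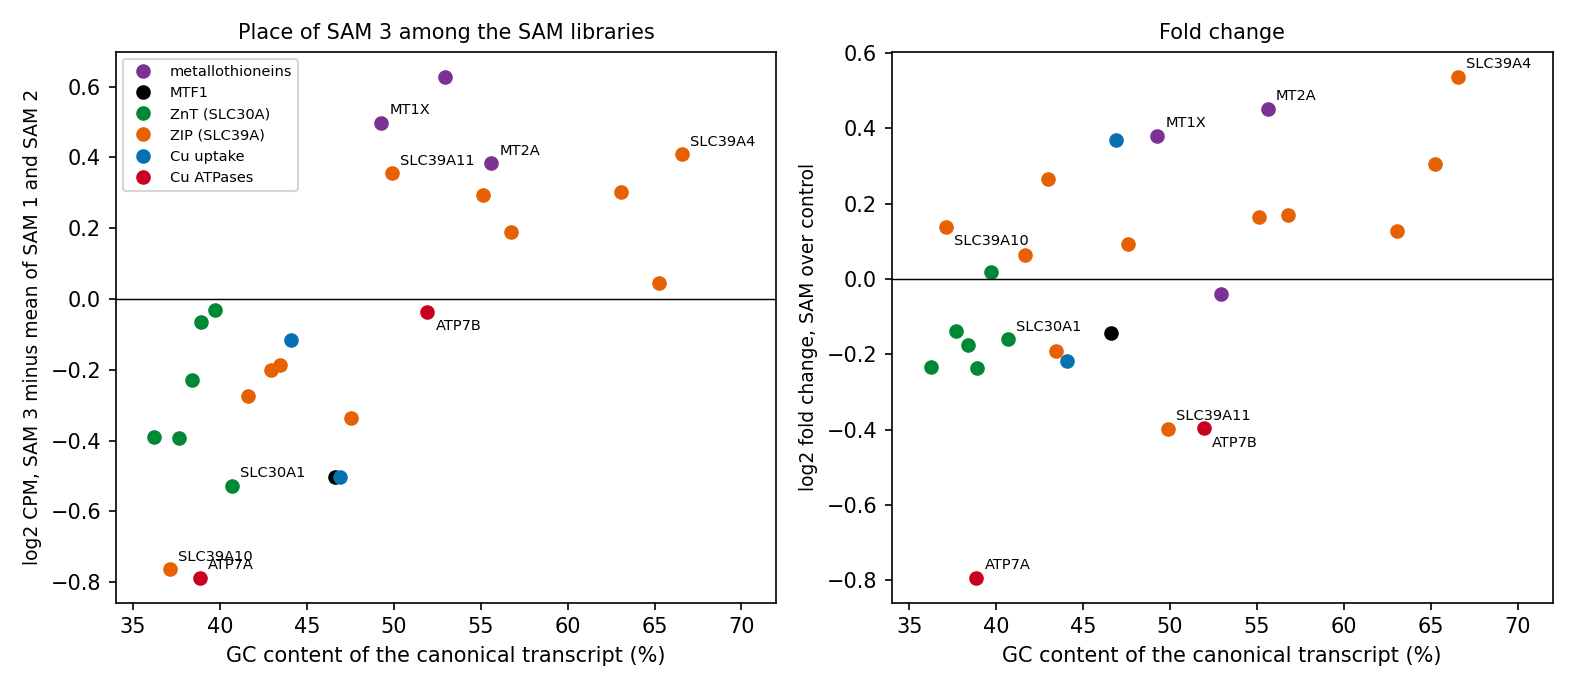
For each of the 25 tested members, by role, the log2 CPM of SAM 3 minus the mean of SAM 1 and SAM 2 (left) and the log2 fold change of SAM over control (right) against the GC content of the canonical transcript in percent. On the left GC-rich members such as SLC39A4 and MT2A lie above 0 and GC-poor members such as ATP7A and SLC39A10 lie below it.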

How the data were processed

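RNA of 6 PC-3 libraries was sequenced, 3 of SAM and 3 of control cells. Per the labels, RNA came from a Peq-Gold kit and TruSeq libraries were read on a HiSeq2000. The study's text gives another dose, kit, sequencer and vehicle, and the labels were followed. The submitters' processing notes list STAR 2.4, HTSeq 0.6.1, SAMtools 0.1.19, DESeq2 1.8, CASAVA 1.8.2 and FastQC 0.10.0 with the builds hg19 and mm10, and give no role for any of them. The authors deposited raw counts per Ensembl gene and a normalised signal, the counts divided by a size factor per library (0.562 to 1.75). Of 51488 identifiers shared with GENCODE release 44, 99.8% overlap that gene, so coordinates are GRCh38. No source used here says whether counting used strand.

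The deposited counts were tested in edgeR 4.0.16 (glmQLFit, glmQLFTest, R 4.3.3) with treatment as the only term and TMM scaling. The filter filterByExpr left 15312 genes, which hold 99.9% of all counts. Tests were two-sided and genes were called at a Benjamini-Hochberg adjusted p under 0.05. CPM used effective (TMM) library sizes, and each SE was computed from the log2 fold change and its F statistic, as size over root F. The biological coefficient of variation was 13.5%. Depth differed 3.09-fold between libraries, and 3 counts were worth 0.103 to 0.320 CPM. Length and GC content are those of GENCODE canonical transcripts, known for 97.2% of tested genes. For the trend fit, a linear trend of each library on both entered edgeR as offsets. Promoters are from RefSeq.

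Alternatives were other scalings and filters, robust dispersion, DESeq2 1.42.0, limma 3.58.1 (voom, and trend on log2 of the deposited signal plus 1), the replicate block, libraries left out, a term for control 1 and SAM 2, the trend fit, thinning and a threshold of 0.01. The trend fit without SAM 3 was added after the data were seen. Values in each library are given for called members, MTF1, MT2A, MT1X, MT1E, SLC30A1, SLC31A1, ATP7A, ATP7B and the 3 SLC30A and 3 SLC39A genes with most CPM per kilobase. For list genes the plan was up to 3 called per list, and values in each library are given for ATOX1, SCO2, STEAP2, FTL and SLC7A11. Others shown were chosen after their values were seen. Members and lists were chosen with earlier results of these data known. The fit was tested on simulated data. The simulated counts had the same dispersion for every gene and no trend on length or GC content, so they cannot show how the fit handles such a trend. Libraries within a group differed by more than sampling noise, with a chi-square of 4.57 to 55.2 per degree of freedom, and were not merged.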

Additional observations from a re-analysis of the deposited data

How the results depend on the processing

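SLC39A4 and ATP7A were called in the same direction in every alternative except without SAM 1 or any 1 control library, at a threshold of 0.01 and, for ATP7A, with thinned libraries. Members called higher numbered 1, and 2 with RLE factors, no filter, a filter of 1 CPM, DESeq2, a term for control 1 and SAM 2, or the trend removed, 0 at a threshold of 0.01, and 5 with the trend removed and SAM 3 left out (SLC39A3, SLC39A4, SLC39A8, SLC39A10 and SLC39A14). Members called lower numbered 1, and 2 with library totals, no filter, DESeq2, or the trend removed with or without SAM 3, and 0 with thinned libraries or at 0.01. Leaving out 1 library gave 0 to 4 higher and 0 to 2 lower. Over the named members and alternatives, 264 values kept direction and side of the threshold, 11 lost the call (ATP7A and SLC39A4), 5 gained one (MT2A and MT1X) and 6 turned sign, none of these called. The log2 fold change of MTF1 turned to 0.0091 with the trend removed and to 0.081 with SAM 3 also left out, and ran from -0.28 to 0.0032 when 1 library was left out, reaching 0.0032 without SAM 3. The log2 fold change of SLC30A1 turned to 0.057 with the trend removed and SAM 3 left out, and ran from -0.32 to 0.0050 when 1 library was left out, again reaching 0.0050 without SAM 3. The log2 fold change of SLC30A6 turned to 0.021 with the trend removed and SAM 3 left out. The cause was not tested. Over all genes, 795 were called higher and 803 lower, beside 1402 and 1341 with no filter, 1256 and 1246 with the term, 446 and 508 without control 1 and SAM 2, 1782 and 1446 with the trend removed, 1931 and 1682 with SAM 3 also left out, and 126 and 127 at 0.01. No label says that same-numbered libraries were paired. Their deviations from the group means correlated at -0.17, -0.40 and 0.13. With 3 libraries a group these deviations depend on each other, so they do not settle whether the libraries were paired. With the replicate block 1 member was called higher and 1 lower, with 440 and 588 genes over all. SAM 1 and SAM 3 correlated best with control 2 (0.13 and 0.30), and SAM 2 with control 1 (0.45). The 15 members that did not pass the filter held 0 to 38 counts each. With no filter, 9 of them could be fitted and edgeR called 0, with 1 at an unadjusted p under 0.05 (SLC39A5).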
